A study of Mus musculus with 9 samples.

Results

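The 5 genes described here encode Wt1 and 4 other transcription factors of the podocyte, Tcf21, Foxc1, Foxc2 and Lmx1b. They were followed through 3 structures microdissected from the embryonic mouse kidney. Every probe set that the platform annotation pairs with exactly 1 of these symbols was taken, which gave 6 of the 20380 probe sets with a single symbol, and the 5 genes were compared with the rest of 12393 genes. Foxc1 had 2 probe sets and each of the others had 1.

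All embryos were wild-type, of strain 129 and of unknown sex, at E14.5 (Theiler stage 22). The renal vesicle, the first epithelial body of a nephron, and the s-shaped body, its later folded stage, were each sampled 3 times as pools of 20 structures. The collecting duct, which branches from the ureteric bud and will drain the nephrons, was sampled 3 times with a pool size of 1 and served as the reference. RNA of every sample went through 2 rounds of T7 amplification before it was hybridised to an Affymetrix MOE430A array, which carries short oligonucleotide probe sets near the 3' ends of transcripts. The labels do not say that the replicates came from different litters, so p-values measure the spread between such samples.

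Podocytes are the epithelial cells that wrap the glomerular capillaries and hold back protein from the filtrate. Their precursors appear in the proximal limb of the s-shaped body, next to the cleft that capillaries enter. Wt1 is a zinc finger protein that is needed first for the mesenchyme to form a nephron and later for podocyte identity. Tcf21 is a basic helix-loop-helix protein of kidney mesenchyme, stroma and podocytes. Foxc1 and Foxc2 are closely related forkhead proteins of mesenchyme, vessels and podocytes, and Lmx1b is a LIM homeodomain protein whose human counterpart is mutated in nail-patella syndrome.

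Wt1, Tcf21, Foxc1 and Foxc2 followed the same order, lowest in the collecting duct, higher in the renal vesicle and highest in the s-shaped body, and the arrays of the 3 structures did not overlap for any of the 4. Each was called higher in all 3 comparisons (limma, adjusted p under 0.05). Among all 7998 genes tested 15.6% were called higher for renal vesicle over collecting duct, 16.9% for s-shaped body over collecting duct, and 18.5% for s-shaped body over renal vesicle. Non-overlap in the same direction was found for 21.2%, 21.3% and 26% of genes. From collecting duct to renal vesicle Wt1 rose 61.8-fold and Foxc2 31.0-fold, and from there to the s-shaped body 2.21-fold and 1.66-fold. Tcf21 rose 9.41-fold and then 8.25-fold, steps of like size with the 26 units that were added before log2. Lmx1b was dim on all 9 arrays and showed no difference past the threshold. In bulk samples such as these, fewer cells that express a gene and less RNA per cell cannot be told apart.

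**Figure D1:**
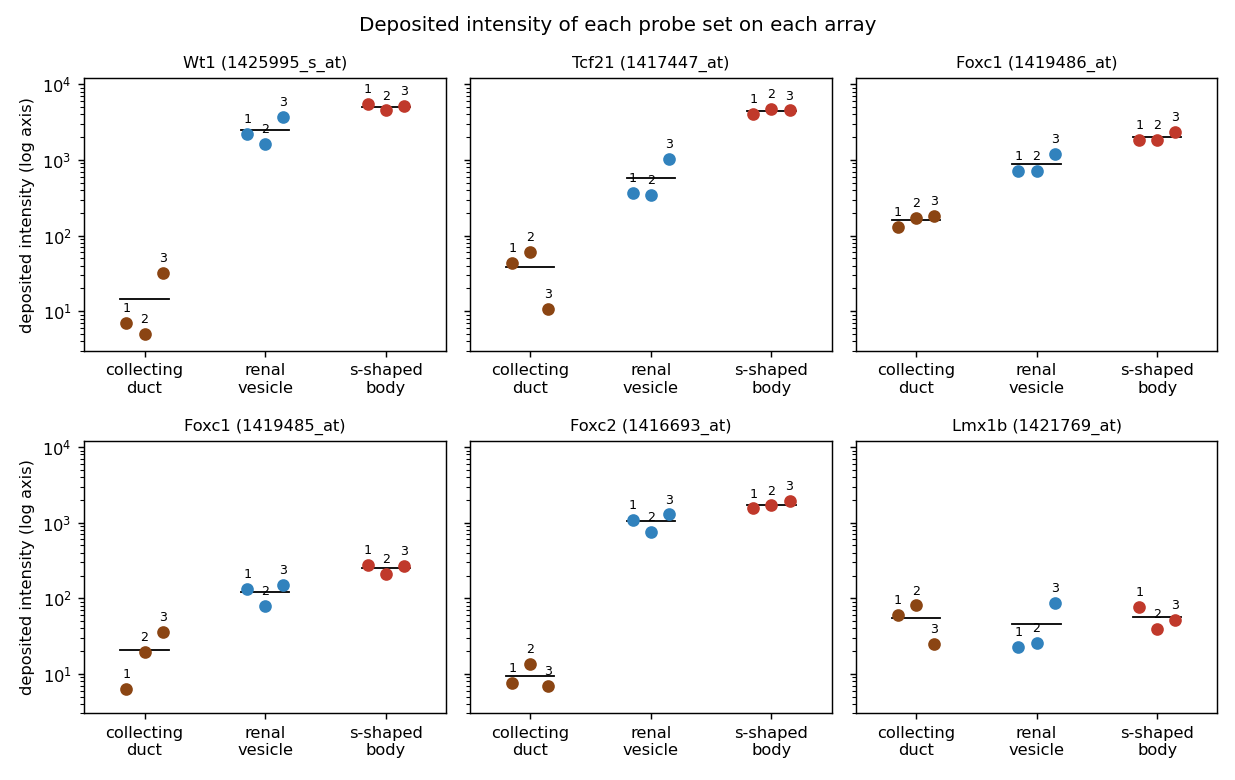
Each panel plots 1 probe set, with the deposited intensity on a log axis for the 3 arrays of each structure, numbered by replicate, and a bar at their mean. Wt1, Tcf21, Foxc1 and Foxc2 step up from collecting duct to renal vesicle to s-shaped body without overlap, and Lmx1b stays at 87.45 units or less on every array.

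Defining markers were set against the labels first. Foxa1, a forkhead gene of ureteric epithelium, stood at 8822 to 11507 intensity units on the collecting duct arrays and at 84.0 or less elsewhere. Lhx1, a homeobox gene of the young nephron, stood at 1727 to 2129 units in the renal vesicle, and Podxl, which encodes a podocyte surface sialoprotein, at 19487 to 25438 units in the s-shaped body. Markers of the young nephron were lower in the s-shaped body than in the renal vesicle. All 8 tested were called lower, and their summed intensity was 5931 to 6559 against 27076 to 27464 units. Lhx1 read 81.5 to 97.1 and Hey1 1875 to 2292 in the s-shaped body. The collecting duct sum was 3040 to 3608 units, and 6 of the 8 genes were higher and 1 lower than that reference in the s-shaped body. Markers of other cells were high there. The summed intensity of 13 interstitial and mural marker genes was 29078 to 35539 units there, against 2426 to 3876 in the renal vesicle and 1882 to 2046 in the collecting duct. That of 13 endothelial genes was 19414 to 20495 units, against 892 to 1414 and 1124 to 1429. For 4 erythroid genes the sums were 20795 to 23466 units, against 427 to 2752 in the renal vesicle, and for 2 macrophage genes 2954 to 3488 against 283 to 493. Renal vesicle replicate 3 stood apart from replicates 1 and 2 in podocyte markers, whose sum over 5 genes was 6820 units there, against 1117 and 1118 units in the other arrays of that structure. Gapdh control probe sets, whose 3' signal exceeds the 5' signal more the shorter the RNA, gave ratios of 20.0 to 32.4 for s-shaped body arrays and 11.6 to 18.6 for collecting duct arrays, with the renal vesicle inside the lower range. The part that other cells, RNA length and this array play in the values that follow was not tested, except where a value without the array is given.

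Wt1 showed the largest differences from the collecting duct of the 5 genes, and the submitters name it among the genes by which they checked the dissection. Its deposited intensities were 7.05, 5.05 and 32.0 in collecting duct replicates 1 to 3, 2209, 1638 and 3730.0 in the renal vesicle, and 5569, 4529.7 and 5192 in the s-shaped body. The collecting duct arrays read near the floor, between percentiles 4.0 and 20.7 of their own probe sets, while the s-shaped body arrays read between percentiles 96.5 and 97.3. On the normalised scale, log2 of the intensity plus 26, the level was 5.24 ± 0.44 in the collecting duct, 11.20 ± 0.59 in the renal vesicle and 12.34 ± 0.15 in the s-shaped body (SD, n = 3 arrays each).

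On that scale the renal vesicle exceeded the collecting duct by 5.95 (SE 0.29, 61.8-fold, limma adjusted p = 2.9e-08), the 4th largest rise among 7998 genes tested. The s-shaped body exceeded the collecting duct by 7.10 (137-fold, adjusted p = 5.3e-09), again rank 4. Both values use the same collecting duct arrays, and because that level lies at the floor, the added 26 units set much of their size. With 1 unit in its place the differences were 7.74 and 8.90, and with 100 units 4.43 and 5.54. Between the nephron stages Wt1 moved far less, by 1.15 (95% interval 0.52 to 1.77, 2.21-fold, adjusted p = 0.0082), which placed it at rank 669. That last call was lost with 1 unit added (1.15, adjusted p = 0.096). The level in the renal vesicle thus lay 83.9% of the way, in log2 units, from collecting duct to s-shaped body.

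Foxc2, a forkhead gene of podocyte precursors and of vessels, had the same shape as Wt1. Its intensities were 7.5, 13.4 and 6.86 in collecting duct replicates 1 to 3, 1085, 754 and 1284 in the renal vesicle, and 1543, 1693 and 1929 in the s-shaped body. The collecting duct arrays read near the floor, between percentiles 5.8 and 11.1, while the highest renal vesicle array lay close below the lowest s-shaped body array. The normalised levels were 5.09 ± 0.11, 10.05 ± 0.37 and 10.78 ± 0.17. The renal vesicle exceeded the collecting duct by 4.95 (SE 0.20, 31.0-fold, limma adjusted p = 7.9e-09, rank 12). The s-shaped body exceeded the collecting duct by 5.69 (51.6-fold, adjusted p = 3.4e-09, rank 18).

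The step of Foxc2 from renal vesicle to s-shaped body was the smallest of the 4 genes, at 0.74 (95% interval 0.30 to 1.17, 1.66-fold, limma adjusted p = 0.012, rank 1164). With all arrays it was called. Leaving out renal vesicle replicate 2 gave 0.53 (adjusted p = 0.068) and leaving out s-shaped body replicate 3 gave 0.65 (adjusted p = 0.058), neither of them a call. Its renal vesicle level lay 87.1% of the way from collecting duct to s-shaped body.

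Foxc1, the paralogue of Foxc2, was the only one of the 4 with a moderate reading in the collecting duct. Its brighter probe set read 130.1, 172 and 183 in collecting duct replicates 1 to 3, 711, 711 and 1211.5 in the renal vesicle, and 1828, 1839 and 2379 in the s-shaped body. The collecting duct values lay between percentiles 50.7 and 55.6 of their arrays, and the added constant bore less on Foxc1. Its difference between renal vesicle and collecting duct was 1.92 with 100 units added and 2.48 with 1 unit, where that of Foxc2 was 3.39 and 6.86. The renal vesicle exceeded the collecting duct by 2.30 (SE 0.22, 4.93-fold, limma adjusted p = 7.6e-06, rank 127), and the s-shaped body exceeded it by 3.51 (11.4-fold, adjusted p = 1.5e-07, rank 114). From renal vesicle to s-shaped body the rise was 1.21 (95% interval 0.73 to 1.68, 2.31-fold, adjusted p = 0.0011, rank 629).

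The dimmer probe set of Foxc1 gave the same order. It read 6.32, 19.3 and 35.5 in the collecting duct, 132, 79.35 and 151 in the renal vesicle, and 279, 211 and 268 in the s-shaped body, again without overlap. In a fit of all 20380 probe sets without an intensity filter its differences were 1.85 and 2.65 against the collecting duct (limma adjusted p = 0.0012 and 6.8e-05). Its rise from renal vesicle to s-shaped body was 0.80 and missed the threshold (adjusted p = 0.072), whereas the brighter probe set passed in that fit at 1.21 (adjusted p = 0.0030). In that fit 16.1%, 17.4% and 19.4% of probe sets were called in the 3 comparisons. The readings of the 2 probe sets cannot be set against each other, since each binds with its own strength.

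With 26 units added, Tcf21 rose by about as much in the later step as in the earlier one. Its intensities were 43.65, 61.4 and 10.7 in collecting duct replicates 1 to 3, 365, 344 and 1037 in the renal vesicle, and 4082, 4733 and 4525 in the s-shaped body. The 3 s-shaped body arrays lay close together, between percentiles 96.1 and 96.8, whereas renal vesicle replicate 3 stood well above replicates 1 and 2. The normalised levels were 5.88 ± 0.65, 9.12 ± 0.83 and 12.16 ± 0.13. The renal vesicle exceeded the collecting duct by 3.23 (SE 0.38, 9.41-fold, limma adjusted p = 4.9e-05, rank 48), and 2.75 without renal vesicle replicate 3. The s-shaped body exceeded the collecting duct by 6.28 (77.6-fold, adjusted p = 1.3e-07, rank 14).

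From renal vesicle to s-shaped body Tcf21 rose by 3.04 (95% interval 2.21 to 3.88, 8.25-fold, limma adjusted p = 7.1e-05, rank 89), and by 3.51 without renal vesicle replicate 3. It was the only one of the 4 genes still called in this step when a change of at least 2-fold was required of the test. Its renal vesicle level lay 51.5% of the way from collecting duct to s-shaped body, and that of Foxc1 65.6%. The median of the 169 genes called higher in all 3 comparisons was 47.5%, so that Tcf21 lay near it and Wt1 and Foxc2 well above. These shares hold for 26 units added. With 1 unit the earlier and later steps of Tcf21 were 4.15 and 3.11, and with 100 units 2.23 and 2.87. Which step was larger thus depended on the added constant.

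**Figure D2:**
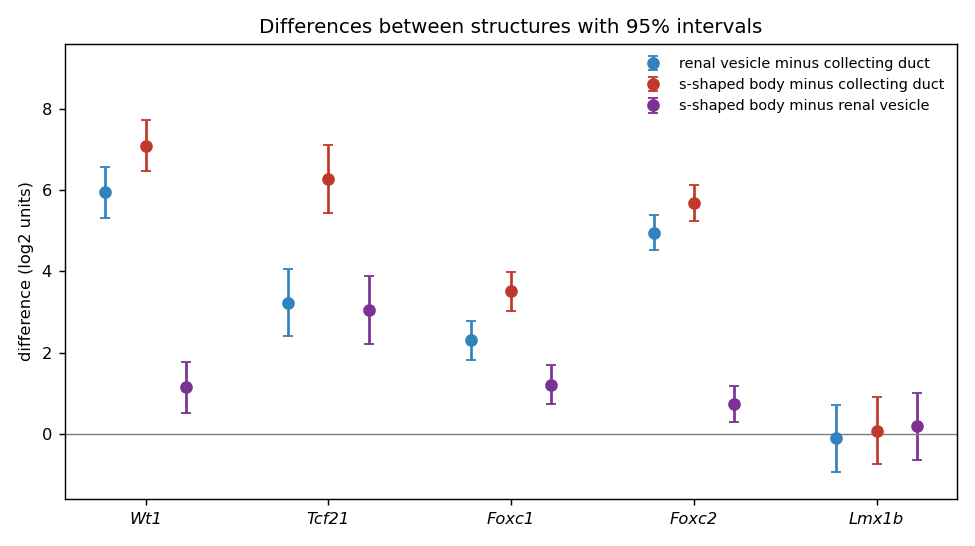
Points show the limma difference of each gene in log2 units for the 3 comparisons and bars show 95% intervals, with Lmx1b taken from the fit without an intensity filter. The step from renal vesicle to s-shaped body is 3.04 for Tcf21 and between 0.74 and 1.21 for Wt1, Foxc1 and Foxc2, and every interval of Lmx1b spans 0.

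The later step of Tcf21 was set against those of the others array by array, as the difference between the normalised log2 levels of 2 genes. These values restate the fitted steps for each array, and only their shift is read, since each probe set binds with its own strength. Relative to Wt1, Tcf21 stood at -2.38 to -1.76 in the renal vesicle and at -0.45 to 0.09 in the s-shaped body, a shift of 1.90 (3.73-fold). Relative to Foxc1 the shift was 1.84 (3.58-fold), from -0.98 to -0.20 up to 0.92 to 1.38. Relative to Foxc2 it was 2.31 (4.96-fold), from -1.44 to -0.28 up to 1.23 to 1.50. In all 3 ratios each s-shaped body array exceeded each renal vesicle array. The two-sided exact permutation p was 0.1 for each, the smallest that 3 arrays against 3 can give, so that this design cannot reach the 0.05 threshold for them.

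Lmx1b did not reach the intensity filter, which asked for a reading above the array's own median on at least 3 arrays. Its intensities were 60.2, 80.4 and 25.1 in collecting duct replicates 1 to 3, 23.0, 25.4 and 87.45 in the renal vesicle, and 77.2, 39.8 and 51.4 in the s-shaped body. All lay between percentiles 17.9 and 43.0 of their arrays, the structures overlapped, and no structure stood out. In a fit of all 12393 genes without the filter the differences were -0.10 (95% interval -0.93 to 0.72) for renal vesicle against collecting duct and 0.08 (-0.74 to 0.90) for s-shaped body against collecting duct. Between the nephron stages the difference was 0.18 (-0.64 to 1.01). The limma adjusted p-values were 0.89, 0.92 and 0.79, in a fit that called 20%, 22.4% and 23.9% of genes. The intervals allow changes of up to about 1 log2 unit either way at this probe set, and a probe set this dim does not show whether the transcript was absent.

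Counted together, 4 of the 5 genes were tested after the filter, and those 4 were the ones called. Only 2.11% of genes, 169 in number, were called higher in all 3 comparisons, as these 4 were. The 4 counts are not independent support, since Wt1, Tcf21 and Foxc2 passed the filter through their renal vesicle and s-shaped body arrays, the comparisons share arrays, and the genes were picked as podocyte regulators with earlier results known.

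**Figure D3:**
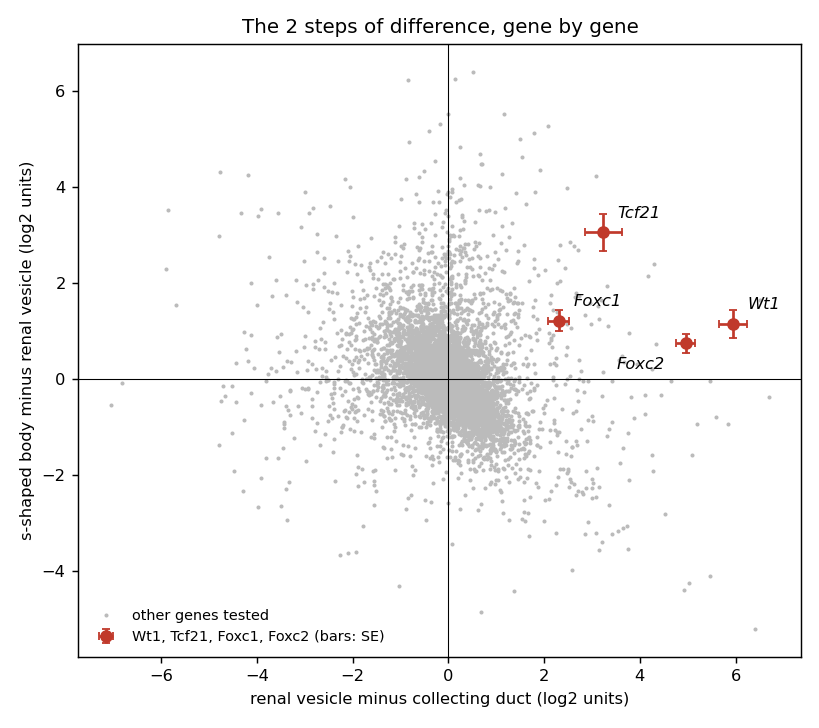
Each grey point is 1 of 7998 genes tested, by its difference from collecting duct to renal vesicle (horizontal) and from renal vesicle to s-shaped body (vertical), both in log2 units, and red points mark the 4 genes with SE bars. Both axes use the renal vesicle arrays, so an error there moves a point down as it moves right. Wt1 and Foxc2 lie far right and low at 5.95 and 4.95 against 1.15 and 0.74, while Tcf21 sits near the diagonal at 3.23 and 3.04.

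Among the renal vesicle arrays replicate 3 was the highest for all 5 genes. For Foxc2 replicate 1 (10.14 on the normalised scale) lay nearer to replicate 3 (10.36) than to replicate 2 (9.65), whereas for Tcf21 replicates 1 and 2 (8.70 and 8.58) lay close together, below replicate 3 (10.08). The excess of replicate 3 over the mean of the other arrays was 1.44 log2 units for Tcf21 (2.71-fold), 0.97 for Wt1 (1.96-fold), 0.72 for Foxc1 (1.65-fold) and 0.47 for Foxc2 (1.38-fold). For the dim Lmx1b it was 1.17, from 23.0 and 25.4 to 87.45 units. Replicate 3 was the highest renal vesicle array for 40.8% of all genes tested, and 9.25% of genes exceeded the other arrays there by as much as Foxc2 or more. The excess stayed below the s-shaped body level for the 4 called genes, whose s-shaped body means lay 3.52, 1.47, 1.45 and 0.89 above the mean of replicates 1 and 2 for Tcf21, Wt1, Foxc1 and Foxc2.

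Podocyte markers and most podocyte products were high in the same array. Replicate 3 was the highest renal vesicle array for 5 of 5 podocyte markers, with a median excess of 1.91, and Podxl ran from 247 to 3018 units in the renal vesicle. It was highest for 15 of 19 podocyte products (median 0.40), for 1 of 13 endothelial genes (median -0.30), for 7 of 13 interstitial and mural genes (median 0.05) and for 0 of 5 cap mesenchyme genes (median -0.23). Further podocyte regulators were highest there for 3 of 7 (42.9%, median 0.03), near the 40.8% of all genes. A high share was not particular to podocyte lists, as 10 of 12 other forkhead genes were also highest there (median 0.20). The median excess of all genes was 0.03. Without this array all 4 genes were still called in each comparison. The rise from renal vesicle to s-shaped body was then 1.46 for Wt1, 1.44 for Foxc1 and 0.88 for Foxc2, each larger than with it.

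**Figure D4:**
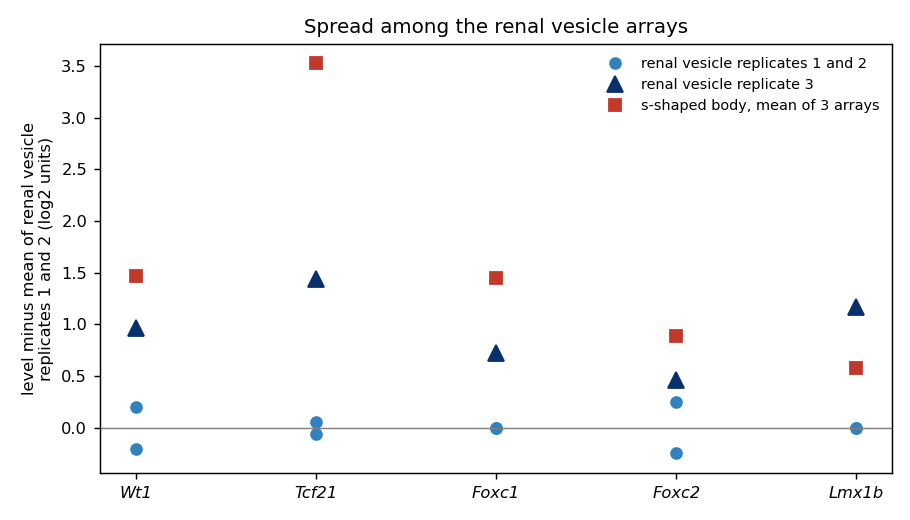
For each gene the normalised log2 level of renal vesicle replicates 1 and 2 (circles) and 3 (triangle) and the s-shaped body mean (square) are drawn as differences from the mean of replicates 1 and 2. Replicate 3 is the highest circle or triangle for all 5 genes, by 0.47 for Foxc2 up to 1.44 for Tcf21.

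Over the 9 arrays the levels of the genes ran in parallel, which the order of the structures largely fixes. Pearson's r, given here as a description over 9 arrays that share their structures, was 0.994 between Wt1 and Foxc2, 0.975 between Wt1 and Foxc1, 0.974 between Tcf21 and Foxc1, and 0.919 between Wt1 and Tcf21. With Lmx1b it was 0.04 to 0.235. Taken on deviations from each structure's mean, over the same 9 arrays, r was highest between Tcf21 and Lmx1b (0.879). That pair includes the dim probe set. Among the called genes this r was 0.71 between Tcf21 and Foxc2, 0.707 between Foxc1 and Foxc2 and 0.705 between Wt1 and Foxc1. The remaining pairs of called genes gave 0.574 (Tcf21 and Foxc1), 0.472 (Wt1 and Foxc2) and 0.214 (Wt1 and Tcf21). The genes most like each regulator, Lmx1b included, were sought among all genes tested. Those closest to Wt1 were Pkdcc (r = 0.998), which encodes a secreted tyrosine kinase, Sncaip (0.997), which encodes synphilin-1, and Foxc2 itself (0.994), and 11 genes reached 0.99. Sncaip (0.996) was also among the 3 closest to Foxc2, with Mical1 (0.997), an actin-oxidising enzyme gene, and Hip1 (0.995), a clathrin adaptor gene.

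Tcf21 had different near neighbours. They were Fermt2 (0.996), which encodes the integrin activator kindlin-2, Sdc2 (0.995), a heparan sulfate proteoglycan gene, and Zeb1 (0.991), a zinc finger repressor gene of mesenchymal cells. Zeb1 rose by 2.54 (limma adjusted p = 4.6e-05) from collecting duct to renal vesicle and by 2.85 from there to s-shaped body (adjusted p = 1.7e-05). Steps like those of Tcf21 follow from the choice of Zeb1 by r over the same arrays. The genes closest to Foxc1 were Plat (0.998), which encodes tissue plasminogen activator, Ptprd (0.997), a receptor phosphatase gene, and Enpep (0.997), which encodes aminopeptidase A. Enpep rose by 4.30 and then by 2.38 (adjusted p = 3.2e-07 and 3.7e-05). For Lmx1b no gene reached 0.99, and the closest, Prepl, had an r of 0.905.

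Promoters are shown because 2 of the genes that moved together, Tcf21 and Foxc1, and the one that did not move, Lmx1b, had an entry in the RefSeq promoter table. RefSeq (GRCm38.p6) gave windows of 300 bases, from 250 before to 50 after the annotated start, for 3 of the 5 genes. Wt1 and Foxc2 are the other two. The Tcf21 window is chr10:22820094-22820393 on the minus strand, that of Foxc1 chr13:31806396-31806695 on the plus strand, and that of Lmx1b chr2:33641049-33641348 on the minus strand. Each is written 5′ to 3′ on the strand of its gene, and capitals mark the matches to the motifs searched.
Tcf21: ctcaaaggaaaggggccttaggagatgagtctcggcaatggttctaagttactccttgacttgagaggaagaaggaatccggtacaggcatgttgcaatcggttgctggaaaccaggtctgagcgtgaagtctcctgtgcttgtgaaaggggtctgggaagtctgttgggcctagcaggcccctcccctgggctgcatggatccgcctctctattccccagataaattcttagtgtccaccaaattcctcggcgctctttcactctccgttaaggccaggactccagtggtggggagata
Foxc1: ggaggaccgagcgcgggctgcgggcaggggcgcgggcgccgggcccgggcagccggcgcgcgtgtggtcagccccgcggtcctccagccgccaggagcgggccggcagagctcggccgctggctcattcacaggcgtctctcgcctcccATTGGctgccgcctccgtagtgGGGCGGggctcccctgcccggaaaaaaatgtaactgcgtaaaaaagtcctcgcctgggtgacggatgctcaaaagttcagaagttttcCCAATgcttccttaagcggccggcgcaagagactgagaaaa
Lmx1b: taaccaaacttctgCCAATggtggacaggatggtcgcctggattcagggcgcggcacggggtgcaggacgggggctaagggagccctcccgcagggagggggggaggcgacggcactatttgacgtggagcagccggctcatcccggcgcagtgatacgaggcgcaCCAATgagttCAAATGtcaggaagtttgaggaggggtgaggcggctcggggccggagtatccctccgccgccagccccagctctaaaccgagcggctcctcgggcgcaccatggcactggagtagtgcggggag

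The 3 windows differed in base composition. Foxc1 had 67.3% G and C, more than 86.2% of all 32851 promoters in the table, and Lmx1b had 65.7%, more than 83.0%. Tcf21 had 53.3%, close to the median of 52.7%. Both strands were searched for 9 motifs. The zinc finger motifs GCGTGGG and GCGGGGG, known for Wt1 and Egr proteins, were in 5.04% and 10.8% of all promoters and in none of the 3. The forkhead motif GTAAACA (3.65% of promoters), the homeodomain motif TAATTA (5.29%) and the TATA box TATAAA (13.6%) were also in none of them.

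The matches that were found are to motifs common among promoters. The GC box GGGCGG, in 35.7% of promoters, stood once in Foxc1 at bases 172 to 177, counted from 1 at the 5′ end of the window. CCAAT, in 37.4% of promoters, stood in Foxc1 at bases 150 to 154 (minus strand) and, after the annotated start, at bases 260 to 264. In Lmx1b it stood at bases 15 to 19 and 167 to 171. The E-box CANNTG, the element that Tcf21 and its relatives bind and which 72.3% of promoters hold, was matched in Lmx1b at bases 177 to 182. Its form CAGCTG (16.3% of promoters) was in none of the 3. The Tcf21 window held none of the 9 motifs. A missing match says only that these letters are not in this window.

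The other genes of each regulator's pathway were taken from written lists, and all genes tested are the background. Across all genes 31.5% were called for renal vesicle against collecting duct (15.6% higher, 15.9% lower, median difference 0.01). For s-shaped body against collecting duct 32.8% were called (16.9% higher, 15.9% lower, median -0.03), and for s-shaped body against renal vesicle 36.3% (18.5% higher, 17.8% lower, median -0.03).

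Genes that published work names as targets of Wt1 were mostly higher in the s-shaped body. Of 15 tested, 12 exceeded their collecting duct level there and 2 fell below it (median 1.59), while the renal vesicle gave 7 above and 1 below (median 0.68). From renal vesicle to s-shaped body 6 rose and 2 fell (median 0.33). Gas1, a membrane protein gene of the nephron progenitor niche, was high in both nephron structures like Wt1. It stood 3.93 in the renal vesicle and 4.24 in the s-shaped body over the collecting duct (SE 0.18, limma adjusted p = 1.5e-08 and 5.4e-09). Unlike Wt1 it did not pass between the nephron stages (0.31, adjusted p = 0.20). Bmp7, a survival signal of nephron progenitors, rose by 1.09 and then by 1.45 (SE 0.18, adjusted p = 0.00072 and 7.4e-05).

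Other reported targets went their own way. The nephrin gene Nphs1, whose product builds the slit between podocytes, missed the threshold between renal vesicle and collecting duct (-0.08, adjusted p = 0.86). Nphs1 rose by 3.46 from renal vesicle to s-shaped body (SE 0.27, limma adjusted p = 1.9e-06). Wnt4, which encodes a secreted inducer of nephron epithelium, read 1148 to 1829 units in the collecting duct, where Wt1 was near the floor. Its renal vesicle difference from the collecting duct missed the threshold (0.68, limma adjusted p = 0.095). Between the nephron stages Wnt4 ran opposite to Wt1. It read 2196 to 2445 units in the renal vesicle and 21.5 to 84.1 in the s-shaped body, a fall of 4.86 (SE 0.29, adjusted p = 3.3e-07). Spry1, a feedback inhibitor of receptor tyrosine kinases, fell by 1.21 between the same stages (adjusted p = 0.0014). Bright Wt1 thus stood beside both bright and dim Wnt4.

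Genes whose proteins are reported to bind Wt1 showed no called rise against the collecting duct. Of 5 tested, 1 was called lower against the collecting duct in the renal vesicle, and 2 in the s-shaped body. The corepressor gene Basp1 was lower in both, with differences of -0.83 and -1.02 (limma adjusted p = 0.0069 and 0.0015), and the splicing factor gene U2af2 was lower in the s-shaped body (-0.64, adjusted p = 0.0081). Pawr, which encodes the proapoptotic protein Par-4, rose by 0.91 from renal vesicle to s-shaped body (adjusted p = 0.0052). The differences of Wtap and Ciao1 were between -0.20 and 0.32 and did not pass. Without renal vesicle replicate 3 the count in the first comparison was 2 instead of 1, as Pawr (-0.66, adjusted p = 0.042) then passed.

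The Egr genes, whose zinc fingers are the closest to those of Wt1, ran in the opposite direction against the collecting duct. From renal vesicle to s-shaped body 0 of 3 were called (median -0.36). All 3 tested were lower in the s-shaped body than in the collecting duct (median -1.69), and 2 were lower in the renal vesicle. Egr2 was lower with differences of -3.51 and -3.86 (SE 0.23, limma adjusted p = 3.5e-07 and 9.3e-08) and Egr1 with differences of -1.32 and -1.69 (SE 0.17). Egr4 passed only in the s-shaped body (-0.88, adjusted p = 0.030), and 4 single omissions ended that call. They were s-shaped body replicates 1 (-0.64, adjusted p = 0.13) and 3 (-0.84, adjusted p = 0.086) and collecting duct replicates 2 (-0.88, adjusted p = 0.080) and 3 (-0.70, adjusted p = 0.095).

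The dimer partners of Tcf21 and their inhibitors did not move as 1 group. Of 7 E and Id genes, the renal vesicle had 1 above and 2 below the collecting duct, the s-shaped body had 1 above and 3 below it, and 0 rose and 4 fell from the first nephron stage to the second. Tcf4, an E protein gene, was higher in both nephron structures, by 1.39 and 1.62 (SE 0.18, limma adjusted p = 9.1e-05 and 1.5e-05), the only one of the 3 E protein genes called higher. Id2, whose product sequesters E proteins, was lower in both, with differences of -1.28 and -2.94 (SE 0.26), and fell by 1.65 between them (adjusted p = 0.00034). Id4 fell by 1.22 from renal vesicle to s-shaped body (SE 0.16, adjusted p = 0.00011).

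Of the 4 genes called in that last step 2 were less firm. Id1 fell by 0.76 (limma adjusted p = 0.016) and Tcf3 by 0.54 (adjusted p = 0.049), and the count was 2 instead of 4 without renal vesicle replicate 1, s-shaped body replicate 1 or s-shaped body replicate 3. Tcf3 was also lost without renal vesicle replicate 2 (-0.43, adjusted p = 0.18) or s-shaped body replicate 2 (-0.62, adjusted p = 0.068). Of 4 other bHLH genes of related families, 1 exceeded its collecting duct level in the renal vesicle and 2 in the s-shaped body, with 0 lower, and 1 fell between the nephron stages. Tcf23, a bHLH gene, was high in the renal vesicle, by 3.02 over the collecting duct (SE 0.28, adjusted p = 6.2e-06), and fell by 2.17 to the s-shaped body (adjusted p = 9e-05). When any 1 of the renal vesicle arrays was left out, Tcf23 did not pass the intensity filter and was not tested, and the first and last of these counts were 0. The count of 2 was 0 or 1 when any array other than collecting duct replicate 1 was left out.

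Among 12 other forkhead genes the directions were mixed. Against the collecting duct, 3 were higher and 4 lower in the renal vesicle, 2 and 3 in the s-shaped body, and 2 rose and 0 fell between them, with medians of -0.11, 0.20 and 0.03. Foxa1 was lower in both nephron structures, with differences of -7.04 and -7.60 (SE 0.23, limma adjusted p = 1.3e-09 and 2.6e-09), the reverse of Foxc1 and Foxc2. Foxa1 read 84.0 units or less outside the collecting duct, so it passed the filter only through its collecting duct arrays. The filter thus partly set its direction. Foxd1, the forkhead gene of the kidney stroma, was higher by 2.33 and 5.11 (SE 0.37) and rose by 2.78 between the nephron stages (adjusted p = 0.00011). Its arrays ran from 11.1 to 45.6 units in the collecting duct, 115 to 455 in the renal vesicle and 1422 to 1792 in the s-shaped body, the same order as Tcf21. Foxo1, a target of insulin signalling, rose by 1.20 from renal vesicle to s-shaped body (SE 0.20, adjusted p = 0.00068). Leaving out collecting duct replicate 2 reduced the first count from 7 to 3, and leaving out any 1 of the collecting duct arrays reduced the second from 5 to 3.

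Of 16 other LIM homeobox and cofactor genes on the array, 5 passed the intensity filter that Lmx1b missed. Of 5 tested, 2 stood above and 1 below the collecting duct in the renal vesicle, 3 and 1 in the s-shaped body, and 2 rose and 1 fell between them. Lhx1, the LIM homeobox gene among those named here, was higher by 5.47 in the renal vesicle (SE 0.24, limma adjusted p = 1.1e-08). It fell by 4.12 from the renal vesicle to the s-shaped body (adjusted p = 2.7e-07). Lhx1 passed the filter only through its renal vesicle arrays, as it read 5.5 to 33.2 units in the collecting duct and 81.5 to 97.1 in the s-shaped body. Its direction was thus partly set by the filter. Lmo2, a LIM-only cofactor gene of blood and endothelium, rose by 3.55 between the same stages (SE 0.41, adjusted p = 3.5e-05), and Ldb2, a LIM-binding cofactor gene, by 1.32 (SE 0.20, adjusted p = 0.00027). Lmo4 was lower in both nephron structures, with differences of -2.52 and -2.55 (SE 0.17). The first count was 1 instead of 3 without renal vesicle replicate 2 or 3. Without replicate 2, Lmo2 then missed the threshold (0.89, adjusted p = 0.16), as it did without replicate 3 (1.16, adjusted p = 0.092), and Lhx1 was not tested.

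Reported targets of Lmx1b were few on the array. Of 2 tested, Cd2ap, a slit diaphragm adaptor gene, was lower in the renal vesicle (-0.89, limma adjusted p = 0.0075) and rose by 0.94 from there to the s-shaped body (adjusted p = 0.0046). Col4a3, a collagen chain gene of the glomerular basement membrane, did not pass in any comparison (-0.08, 0.23 and 0.30, SE 0.45).

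Further regulators of podocytes did not share one direction. Of 7 tested, 1 stood above and 4 below the collecting duct in the renal vesicle, 3 and 3 in the s-shaped body, and 2 rose and 1 fell between them. Hey1, a Notch target gene, was higher by 5.83 in the renal vesicle (SE 0.25, limma adjusted p = 1.1e-08) and then fell by 0.94 (adjusted p = 0.011). Wwtr1, which encodes the Hippo pathway coactivator Taz, rose only late, by 1.52 from renal vesicle to s-shaped body (SE 0.25, adjusted p = 0.00049), after a difference of 0.18 in the first comparison (adjusted p = 0.61). Klf6 was lower in both nephron structures, with differences of -4.20 and -3.82 (SE 0.29), and Osr1, an odd-skipped factor gene of early mesenchyme, gave -2.65 and -2.60 (SE 0.34). On the normalised scale Osr1 stood at 5.08 and 5.13 in the nephron structures, against 7.73 in the collecting duct. It passed the filter only through its collecting duct arrays, which partly set its direction. Without collecting duct replicate 2 the first count was 3 instead of 5.

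Products of the podocyte were high mainly in the s-shaped body. Of 19 tested, 17 rose and 0 fell from renal vesicle to s-shaped body (median 1.83), and in the latter 14 stood above and 0 below the collecting duct (median 1.49). Against the collecting duct the renal vesicle had 4 higher and 5 lower (median -0.08). Cdkn1c, a cell cycle inhibitor gene of differentiating podocytes, differed by -0.27 in the renal vesicle (adjusted p = 0.53) and rose by 4.53 to the s-shaped body (SE 0.30, limma adjusted p = 5.9e-07). Synpo, which encodes the actin-associated protein synaptopodin, differed by -0.41 and then rose by 5.16 (SE 0.41, adjusted p = 2.4e-06). Tjp1, which encodes the junction protein ZO-1, rose by 1.83 (SE 0.15, adjusted p = 2.9e-06). In the renal vesicle Cdkn1c (-0.72, adjusted p = 0.0072) and Synpo (-1.04, adjusted p = 0.0048) were below the collecting duct when replicate 3 was left out. Of 23 products on the array 19 passed the intensity filter, and any that were dim elsewhere could pass only through their s-shaped body arrays. How the products stand against the regulators is a description, as the lists were not tested against each other.

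**Figure D5:**
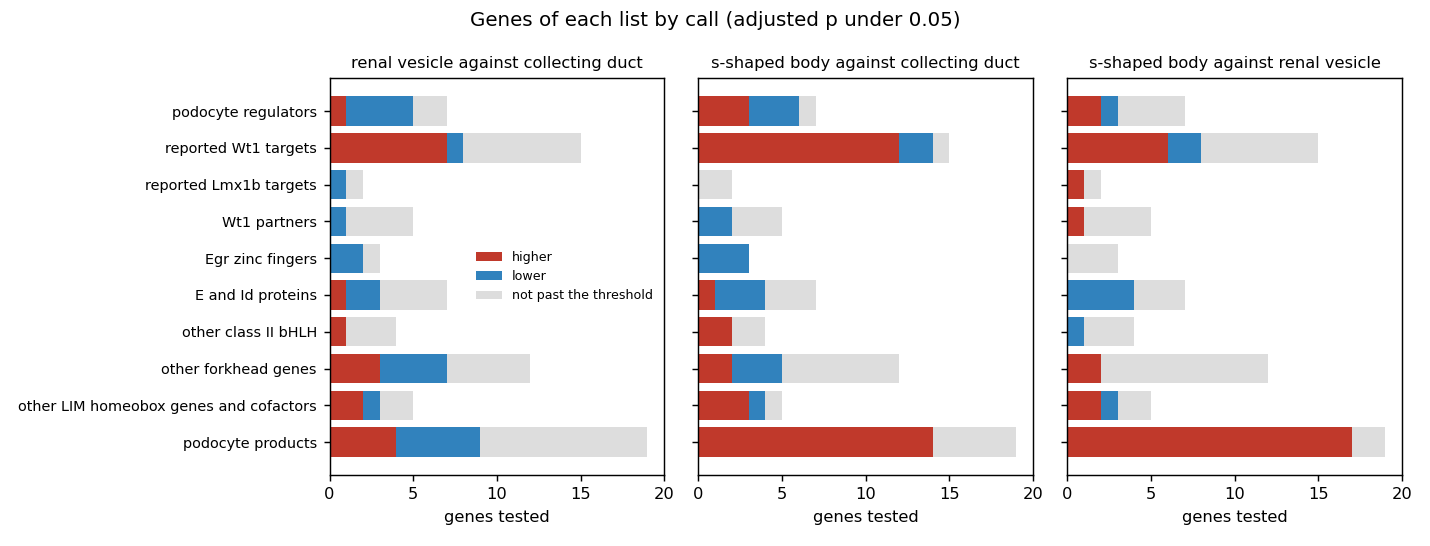
Bars give, for each list, the number of tested genes called higher (red), called lower (blue) and not past the threshold (grey) at an adjusted p under 0.05 in the 3 comparisons. Podocyte products show 17 higher and 0 lower from renal vesicle to s-shaped body, reported Wt1 targets 12 higher and 2 lower from collecting duct to s-shaped body, and the Egr list has no gene called higher.

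Markers of other cells rose mainly from renal vesicle to s-shaped body. Against the collecting duct the renal vesicle had 7 interstitial and mural genes higher and 2 lower of 13 (median 0.93), and 2 endothelial genes higher and 2 lower of 13 (median -0.05). Of 13 interstitial and mural genes 11 rose and 0 fell from renal vesicle to s-shaped body (median 2.78), and in the latter 12 stood above and 0 below the collecting duct (median 3.93). Of 13 endothelial genes all were higher in both comparisons (medians 3.17 and 2.95). Pdgfrb, a mural and stromal receptor gene, ran from 35.9 to 55.9 units in the collecting duct, 88.2 to 329 in the renal vesicle and 2934 to 3774 in the s-shaped body. Cdh5, the cadherin gene of endothelium, ran from 36.8 to 90.5, 42.7 to 89.9 and 416 to 719 units. The 4 erythroid and 2 macrophage genes tested all rose from renal vesicle to s-shaped body (medians 3.87 and 2.04). The array held 17 interstitial and mural, 16 endothelial, 7 erythroid and 9 macrophage genes, of which 13, 13, 4 and 2 passed the intensity filter. Genes dim in the other structures, such as Cdh5, could pass only through their s-shaped body arrays. The filter thus partly set these counts of rises. Tcf21, Foxc1 and Foxc2 are also known in stroma or vessels, and the share of their signal that came from those cells, in either nephron structure, was not tested.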

How the data were processed

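Per the labels and the deposited table, the values are intensity on a linear scale, 1 per probe set and array. GCOS, the array software, is named by the submitters' processing notes, and the algorithm and genome build are not given in the sources used here. The mean of each array, without its top and bottom 2%, lay between 500.2 and 500.3, and array medians between 112.2 and 144.8 units. The number of arrays, 3 per structure, limits the precision.

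The platform annotation named the genes. After 26 units (the 20th percentile) were added, log2 values were quantile normalised. Probe sets above their array's median on at least 3 arrays were kept, with the brightest per gene, leaving 7998 genes. The added units understate folds of dim genes. One limma fit (version 3.58.1, R 4.3.3, lmFit and eBayes with an intensity trend) used all 9 arrays and left 6 residual degrees of freedom. Tests were two-sided, with Benjamini-Hochberg adjustment within each comparison and a threshold of 0.05. The procedure was tested on simulated data.

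The members and lists were chosen with earlier results of these data known. Named were the 5 genes, up to 4 genes per list and comparison with the smallest adjusted p (all where 5 or fewer were tested), the 3 genes most like each member and defining cell markers. Spry1 and the neighbouring genes were named outside this rule, Spry1 after its values were seen. Alternatives were other constants, scalings, filters, probe-set rules, fits and omitted arrays.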

Additional observations from a re-analysis of the deposited data

How the results depend on the processing

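The differences of Wt1, Tcf21, Foxc1 and Foxc2 kept their direction in all 3 comparisons under each of 23 alternatives. Against the collecting duct all 4 stayed past the threshold, with 4 members called under every alternative. For s-shaped body against renal vesicle, Tcf21 stayed past it, and Wt1 lost its call with 1 unit added (1.15, limma adjusted p = 0.096). With a required change of 2-fold, 1 member was called in that comparison, and Wt1 (1.15), Foxc1 (1.21) and Foxc2 (0.74) were not. The same setting called 410, 678 and 449 genes in the 3 comparisons, instead of 2519, 2626 and 2905, as the test asks for more. Without renal vesicle replicate 3 and collecting duct replicate 2 together, 1542 genes were called for renal vesicle against collecting duct, with fewer arrays.

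Leaving out 1 array at a time gave 0.53 to 0.88 for Foxc2 in s-shaped body against renal vesicle and 3 to 4 members called there. For Lmx1b, which never passed, it gave -0.49 to 0.10, -0.24 to 0.28 and -0.013 to 0.57 in the 3 comparisons, with changes of sign, and array weights gave -0.18 for s-shaped body against collecting duct (the cause was not tested). Median centring moved the median of all genes to 0.11 between renal vesicle and collecting duct and to -0.11 between the nephron stages. It made 59.9% of the calls in the former rises, against 49.6%, and no further normalisation made 44%. For the latter the share of rises was 51%, 43.6% with median centring and 56% with no further normalisation.

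Of 9 pairs of samples with the same replicate number, 5 had a correlation of deviations above 0.1 and 4 lay below 0 (-0.0344 to 0.161), so the numbers were not taken as pairs. Not every sample correlated best with its own number. With the replicate block 2605, 2646 and 2997 genes and 4, 4 and 4 members were called. Collecting duct readings near the floor limit the folds of Wt1, Tcf21 and Foxc2, and Lmx1b was too dim to resolve changes below about 1 log2 unit.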

Other observations

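Foxc1 and Foxc2 each lie in a cluster of forkhead genes, and the genes next to the 5 regulators were looked up in the RefSeq order of GRCm38.p6, with 3 protein-coding genes on either side. Foxq1, a forkhead gene beside Foxc1, ran opposite to it, with differences of -2.00 in the renal vesicle and -2.63 in the s-shaped body against the collecting duct (SE 0.26, limma adjusted p = 0.00011 and 6.5e-06). Wrnip1, on the other side of Foxc1, was higher by 0.77 and 0.61 (SE 0.16). Foxf2 beside Foxc1, and Foxf1, Foxl1, Irf8 and Fbxo31 beside Foxc2, were below the intensity filter, so Foxc2 had no tested neighbour. Pax6 beside Wt1 and Eya4 beside Tcf21 were also below the filter.

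Beside Wt1, the translation factor gene Eif3m was higher than in the collecting duct by 1.48 in the renal vesicle and 2.18 in the s-shaped body (SE 0.36, limma adjusted p = 0.0077 and 0.00045). Rcn1, a calcium-binding protein gene of the secretory pathway, was higher by 0.92 in the renal vesicle (SE 0.25, adjusted p = 0.014) and fell by 1.42 from there to the s-shaped body (adjusted p = 0.00087), where Wt1 rose. Tbpl1 beside Tcf21 did not pass (differences 0.30, -0.09 and -0.39, SE 0.30). Beside the dim Lmx1b, Mvb12b, the nearest tested gene, was lower in the renal vesicle (-0.56, adjusted p = 0.030), Mapkap1 did not pass, and Pbx3, a homeobox gene, was higher by 0.57 and 0.61 in the nephron structures (SE 0.18, adjusted p = 0.030 and 0.020).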
